A study of Mus musculus with 18 samples.

Results

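The interleukin 1 and inflammasome genes described here are 9 genes that make, block or release interleukin 1 and interleukin 18: Il1a, Il1b, Il1rn, Il18, Casp1, Casp4, Nlrp3, Pycard and Gsdmd. They were taken by name, not by their values, and each matched a single identifier among the 50686 in the file. In GRCm38 (GENCODE M21), Il1rn lies at chr2:24336853-24351494 on the + strand, with Il1a (chr2:129299610-129309972) and Il1b (chr2:129364570-129371139) farther along that chromosome on the - strand. Casp1 (chr9:5298517-5307265) and Casp4 (chr9:5308828-5336783) are neighbours on the + strand. All 9 had enough counts to be tested, with 13447 genes tested in all. Messenger RNA was counted in 18 libraries of primary mouse microglia, 3 for each of 6 genotypes. Across these genotypes Il1rn, which encodes the secreted and intracellular blockers of the interleukin 1 receptor, was the only member that passed the overall test of genotypes. Its level was high in 2 of the 3 libraries labelled Tbk1+/- alone, at 154 and 209.9 CPM (counts per 1e6 after scaling by TMM, the trimmed mean of M values), against 15.2 to 58.7 CPM in the 16 others. The other 8 members were not called in any comparison made by the main test.

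Forebrain cells of C57BL/6 mice taken at postnatal day 2 were grown in mixed culture with a medium change after 7 days and 7 further days, and microglia were then shaken off and kept in medium with serum. Beside wild type (WT), 2 groups carried 1 altered gene: Tbk1het stands for Tbk1+/- and Tak1het for Tak1ΔM/+. Tbk1het Tak1het carried both. The last 2 groups added the Ripk1 mutation D138N, which inactivates the kinase. Tbk1het Ripk1hom had it on both alleles beside Tbk1+/-, and Tbk1het Tak1het Ripk1het had it on 1 allele beside Tbk1+/- and Tak1ΔM/+. No group received a treatment that the labels name. What the ΔM allele removes, and any driver of its deletion, are not given in the sources used here. The labels do not say whether replicate libraries derive from different animals or cultures, so p-values measure the spread between these libraries, which may be technical. The study asked how Tbk1 and Tak1 act on RIPK1-driven inflammation, and the comparisons follow from that: each heterozygote against WT, the double heterozygote against WT and against each single heterozygote, each D138N group against the same genotype without it and against WT, and the interaction of Tbk1 and Tak1.

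Interleukin 1 alpha, interleukin 1 beta and interleukin 18 are cytokines without a signal peptide. Interleukin 1 beta and interleukin 18 are made as precursors, which caspase-1 cuts once a sensor such as NLRP3 has assembled with the adaptor ASC (encoded by Pycard) into an inflammasome. Caspase-11, the product of mouse Casp4, is activated by cytosolic lipopolysaccharide. Both caspases cut gasdermin D, whose pores in the plasma membrane let the mature cytokines out. In microglia, transcription of Il1b and Nlrp3 is known to follow NF-kB activity, and TAK1, TBK1 and RIPK1 are kinases that act around that pathway. Messenger RNA levels do not show whether an inflammasome was active or a cytokine was released.

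Total counts ranged from 8016559 in Tbk1het Tak1het replicate 2 to 22989116. The targeted genes were read first. Tbk1, the kinase deleted on 1 allele, was at 119 ± 25.6 CPM in WT (SD, n = 3), 57.8 ± 7.55 in Tbk1het and 59.2 ± 5.97 in Tbk1het Tak1het. In 5 of the 6 libraries labelled Tbk1+/- with D138N, however, Tbk1 lay between 107 and 131 CPM, which is within the WT range of 104 to 149. The sixth, Tbk1het Ripk1hom replicate 2, was at 54.9. These 5 libraries go against their Tbk1 label, so the groups below are called the libraries labelled Tbk1het Ripk1hom and labelled Tbk1het Tak1het Ripk1het, and directions drawn from them carry that doubt. Map3k7, which encodes TAK1, was at 7.34 to 9.98 CPM in Tak1het, under every WT library (10.4 to 19.2 CPM), while Tbk1het Tak1het (6.57 to 15.8 CPM) overlapped WT. Ripk1 was at 17 to 23.8 CPM in WT, 13.6 to 21.5 in Tbk1het and 14.5 to 46.9 in Tak1het. It was higher in Tbk1het Tak1het, at 49 to 71 CPM, although that label names no Ripk1 change. The libraries labelled Tbk1het Ripk1hom had 16.2 to 49.5 CPM and those labelled Tbk1het Tak1het Ripk1het 23.1 to 62. The cause of these Ripk1 levels was not tested. Counts per gene do not show the D138N change. The 12 microglial markers were all tested and summed to between 7940 and 10700 CPM. Of 10 neutrophil markers, S100a9, Ly6g, Ngp, Retnlg and Cxcr2 were at 0 in every library, and the list summed to at most 4.4 CPM. The mitochondrial share of counts was 0.367 to 0.671% in 8 libraries and 1.05 to 2.2% in the other 10. All 3 Tbk1het Tak1het libraries were among the 8 and all 3 Tbk1het libraries among the 10, so for these groups the share and the genotype cannot be told apart.

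Il1rn, the called member, has an upstream start and downstream starts, whose different first exons give different forms of the protein. The start-site sequences below show Il1rn at its upstream and its later downstream start, then Il1b and Casp4, which were not called. They are RefSeq sequences of GRCm38.p6, 160 bases before to 20 after each start, written 5′ to 3′ on the strand of the gene, with capitals at matches on either strand to an NF-kB motif (GGG and CC with any 5 bases between them) or the AP-1 motif TGANTCA.
Il1rn upstream start, chr2:24336700-24336879, + strand: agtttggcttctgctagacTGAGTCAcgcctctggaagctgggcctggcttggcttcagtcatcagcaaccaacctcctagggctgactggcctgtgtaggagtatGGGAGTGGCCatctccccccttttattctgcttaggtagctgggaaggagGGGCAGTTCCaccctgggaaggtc
Il1rn downstream start, chr2:24345211-24345390, + strand: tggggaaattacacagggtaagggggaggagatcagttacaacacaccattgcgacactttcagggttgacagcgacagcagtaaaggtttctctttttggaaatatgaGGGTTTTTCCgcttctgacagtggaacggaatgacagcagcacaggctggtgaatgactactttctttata
Il1b start, chr2:129371120-129371299, - strand: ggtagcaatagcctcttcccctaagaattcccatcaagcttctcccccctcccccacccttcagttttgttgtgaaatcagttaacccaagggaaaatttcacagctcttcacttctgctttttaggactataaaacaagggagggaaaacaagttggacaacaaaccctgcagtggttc
Casp4 start, chr9:5308689-5308868, + strand: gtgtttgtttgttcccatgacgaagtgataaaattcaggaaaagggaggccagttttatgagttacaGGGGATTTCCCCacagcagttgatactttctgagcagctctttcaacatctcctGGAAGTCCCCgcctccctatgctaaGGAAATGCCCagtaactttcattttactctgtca
Windows of 300 bases were found for 8 of the 9 members, in 12 windows. Gsdmd is the other. The NF-kB letters occurred in windows of 4 members (Il1rn, Casp1, Casp4 and Nlrp3), and Casp4 held the most, 5 matches, 3 of which overlap. They occurred in 50.8% of all 32851 RefSeq promoter windows of that length. The AP-1 letters occurred in windows of 2 members (Il1a and Il1rn) and in 7.81% of all windows. An interferon-response core (GAAA and GAAA with any 2 bases between them) was found in no member window and in 3.44% of all windows. These matches describe letters and were not compared with any binding data. The same stretch around an earlier downstream start of Il1rn (chr2:24345131-24345310), not printed, holds no NF-kB or AP-1 match. Il1b held no match in its window, although its transcripts were present in every library.

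Levels of different genes are comparable only per length of transcript. In WT, Casp1 had the highest level of the 9 at 80.95 ± 23.2 CPM per kilobase of exonic length (SD, n = 3), Gsdmd had 30.5 ± 6.87, Il18 had 20.4 ± 7.45 and Pycard had 17.4 ± 0.594. The inducible cytokine genes were lower: Il1b had 8.82 ± 3.82 CPM per kilobase, Il1rn had 5.23 ± 2.08 and Il1a had 2.88 ± 1.94. Casp4 and Nlrp3 lay among these, at 5.77 ± 2.52 and 4.06 ± 0.496 CPM per kilobase. Lengths were taken over all annotated exons of a gene, so a gene with a long alternative exon reads low on this scale. Il1a had the fewest counts, 13 to 181 per library, and its values are the least precise.

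The members differed in how much they varied inside a genotype. The SD of log2 CPM within genotypes was 0.19 for Pycard, 0.23 for Nlrp3 and 0.29 for Gsdmd, below the median of 0.37 over all tested genes. It was 0.75 for Il1b, 0.82 for Il1rn, 0.83 for Casp4 and 1.11 for Il1a. Genotype accounted for 59.6% of the variance of log2 CPM of Il1rn and for 51.2% of that of Pycard, against a median of 39.4% over all tested genes. It accounted for 13.1% for Casp1 and 14.1% for Casp4. For every member, genotypes next to each other in the order of mean level had overlapping libraries.

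**Figure D1:**
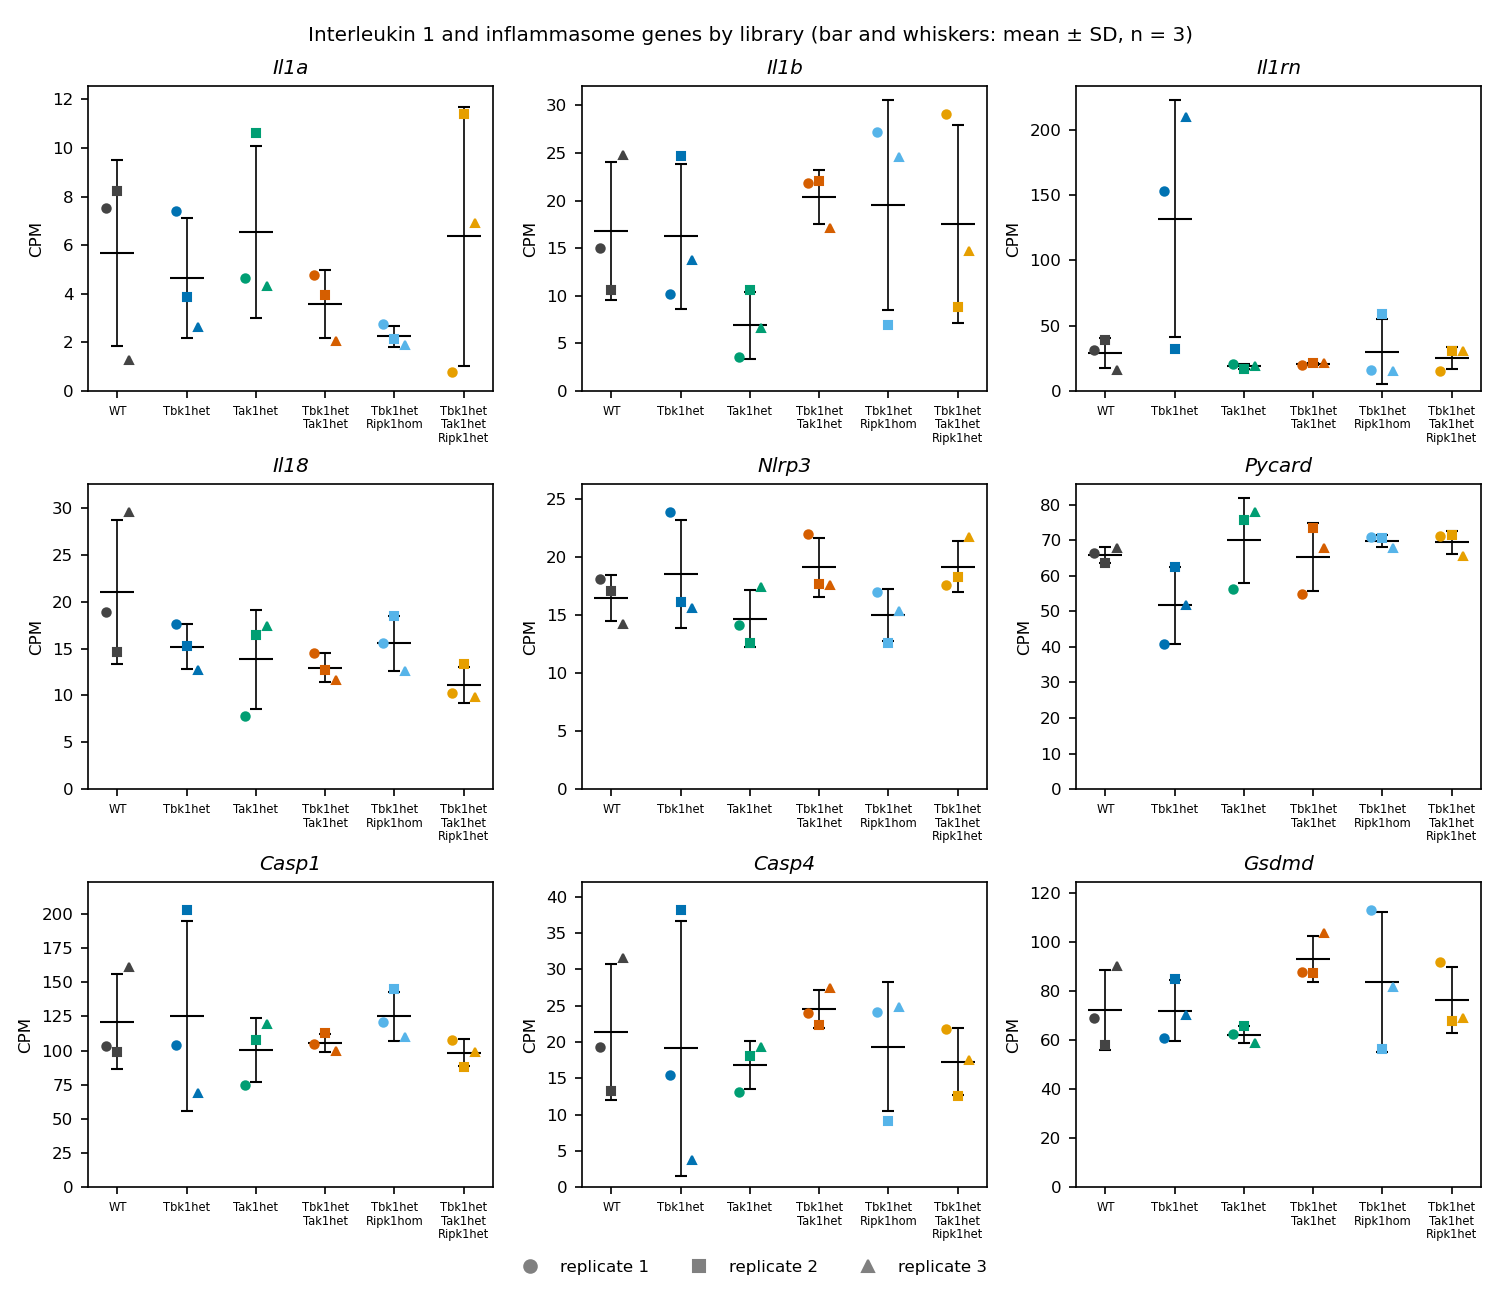
Each panel plots 1 gene, with CPM per library on the y axis and the 6 genotypes on the x axis. Points are the 3 libraries of a genotype. Il1rn is high in 2 Tbk1het libraries (154 and 209.9 CPM), and Il1b is lowest in Tak1het.

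Il1rn, whose product binds the interleukin 1 receptor without signalling, was at 31.6, 38.9 and 16.3 CPM in the 3 WT libraries. In Tbk1het it was at 154, 32.3 and 209.9 CPM. It was at 20.7, 16.6 and 19.2 CPM in Tak1het and at 20.1, 21.2 and 21.4 in Tbk1het Tak1het. The values of Tbk1het therefore fall into 2 high libraries and 1 at the WT level, and the values of Tbk1het Tak1het lie close together under every Tbk1het library. The libraries labelled Tbk1het Ripk1hom had 15.97, 58.7 and 15.2 CPM, and those labelled Tbk1het Tak1het Ripk1het had 15.4, 30.4 and 30.3. Both of these groups overlap WT, and 1 library labelled Tbk1het Ripk1hom lies above it.

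Il1rn differed between the 6 genotypes in the overall test (adjusted p = 0.00986 by edgeR's quasi-likelihood test with Benjamini-Hochberg adjustment over all tested genes). It was the only 1 of the 9 members called there, where 7.18% of all tested genes were called and 23% had an unadjusted p under 0.05. It fell in Tbk1het Tak1het against Tbk1het by 2.66 on the log2 scale (SE 0.57, 95% interval -3.86 to -1.46, adjusted p = 0.00488), and the libraries of the 2 groups did not overlap. In that comparison 14.7% of all tested genes were called, 8.24% as lower. Against WT, its level in Tbk1het differed by a log2 fold change of 2.19 (SE 0.56, adjusted p = 0.201), which did not pass, and the libraries overlapped. Leaving out 1 library at a time moved that difference between 1.68 (adjusted p = 0.588, without Tbk1het replicate 3) and 2.66 (adjusted p = 0.0065, without Tbk1het replicate 2), and only the latter passed. The difference of the libraries labelled Tbk1het Ripk1hom from Tbk1het was -2.15 (adjusted p = 0.0900) and that of the interaction -2.04 (adjusted p = 0.193), so neither passed. Replicate 2 labelled Tbk1het Ripk1hom, the library of that group with Tbk1 at the heterozygous level, had 58.7 CPM. Its mitochondrial share was also the highest of that group, at 1.565% against 0.451 and 0.449% in replicates 1 and 3. Within that group the Tbk1 level and the share cannot be told apart. Without Tbk1het replicate 3 the overall call ended (adjusted p = 0.0831), while the call in Tbk1het Tak1het against Tbk1het held without each library in turn.

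Other genes were high in the same 2 libraries. Lyve1, a receptor of border-associated macrophages, was at 98.2 and 156 CPM in Tbk1het replicates 1 and 3, at 0.571 CPM in replicate 2 and at no more than 8.78 CPM in any other genotype. Pf4, a chemokine of those macrophages, was at 349 and 365 CPM there and at 104 to 210.2 CPM in the 16 other libraries. Cd14, a coreceptor for lipopolysaccharide, was at 4149 and 5716 CPM there and at 1287 to 1909 CPM elsewhere. The list of 8 border macrophage and monocyte markers does not separate these 2 libraries as a whole. It summed to 1050, 1393 and 1136 CPM in Tbk1het, against 834 to 1098 CPM in WT and 1092 to 1127 in Tbk1het Tak1het, and 6 of its 8 genes were tested. Mrc1, another of them, was at 245, 366 and 362 CPM in Tbk1het and within 142 to 375.5 CPM in the rest. Lyve1 fell in Tbk1het Tak1het against Tbk1het (log2 fold change -6.34, SE 1.38, adjusted p = 0.00524), and Pf4 did not pass (-0.71, adjusted p = 0.0919). In bulk RNA, fewer cells of a type and less RNA per cell cannot be told apart, and the part of such cells in the Il1rn levels was not tested. With the mitochondrial share as a covariate the difference in Il1rn was -1.33 (adjusted p = 0.353), in a fit that called 140 of all genes against 1974. That share was 2.2, 1.82 and 2% in Tbk1het against 0.367 to 0.512% in Tbk1het Tak1het, and in the 8 libraries of low share Il1rn lay between 15.2 and 21.4 CPM, against 16.6 to 209.9 in the 10 others.

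**Figure D2:**
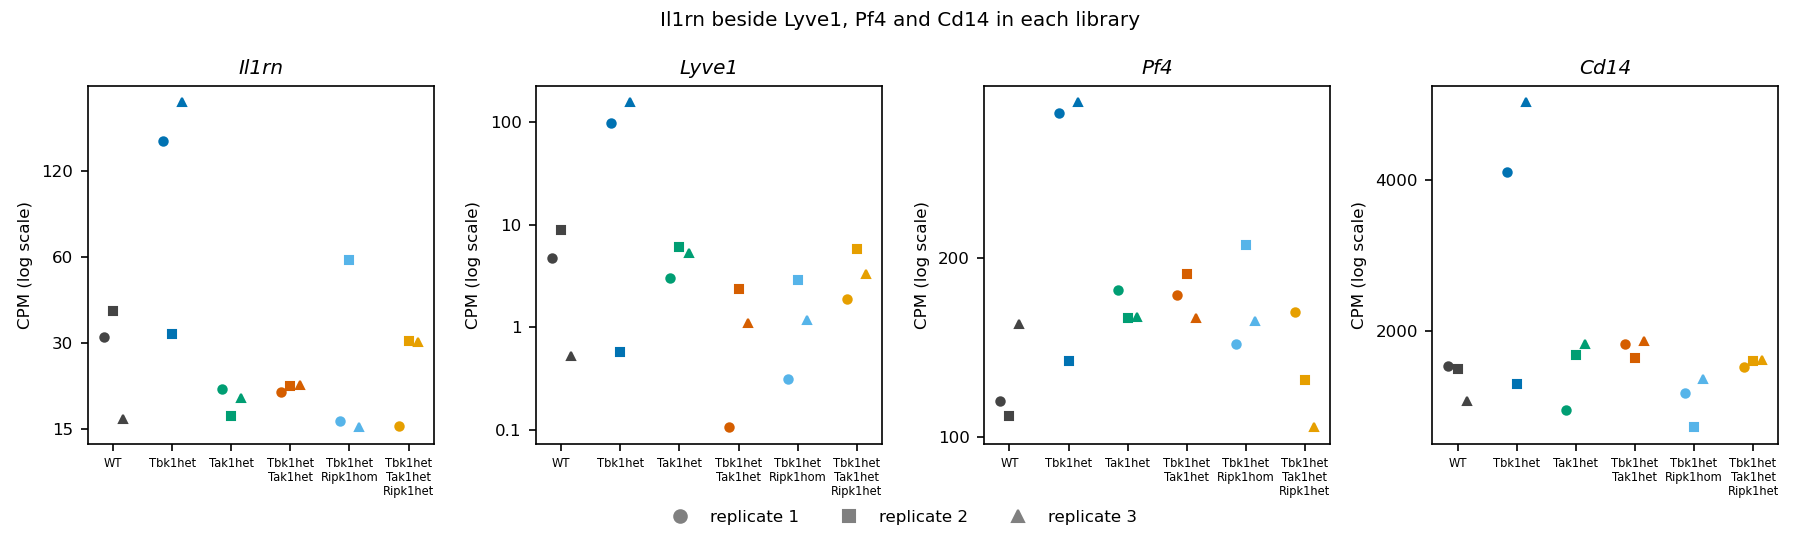
Il1rn beside Lyve1, Pf4 and Cd14, with CPM per library on logarithmic y axes and genotypes on the x axis. Points are libraries, with the replicate number as symbol. Tbk1het replicates 1 and 3 are the highest for all 4 genes.

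By the rule of likeness, the correlation of log2 CPM with Il1rn over the 18 libraries, the genes most like Il1rn were Procr, the protein C receptor (r = 0.926, rho = 0.709), Tpm4, a tropomyosin (r = 0.92, rho = 0.651), and Tes, a focal adhesion protein (r = 0.909, rho = 0.862). The 18 libraries share genotypes and depth, so this is a description. Procr was at 31.4, 7.77 and 34.4 CPM in Tbk1het and at 3.24 to 11.5 in the other genotypes. Tpm4 was at 595, 406 and 683 CPM in Tbk1het, against 306 to 533 elsewhere. Tes was at 128, 108.8 and 157 CPM in Tbk1het, against 64.4 to 107.9 elsewhere. The same 2 libraries, Tbk1het replicates 1 and 3, held the highest values of each of these genes. Tpm4 was next highest in replicate 2 labelled Tbk1het Ripk1hom (533 CPM), where Il1rn was at 58.7 CPM. The correlations were not computed without these libraries.

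Il1b, the inflammasome-processed cytokine, was at 15, 10.6 and 24.8 CPM in WT and at 10.2, 24.7 and 13.7 in Tbk1het. Tak1het had 3.6, 10.6 and 6.59 CPM, the lowest mean of the genotypes (6.93 ± 3.52, SD, n = 3), and Tbk1het Tak1het had 21.8, 22.1 and 17.1. All Tbk1het Tak1het libraries lay above all Tak1het libraries, and those of WT overlapped with both. The libraries labelled Tbk1het Ripk1hom had 27.2, 6.94 and 24.5 CPM and those labelled Tbk1het Tak1het Ripk1het 29.1, 8.85 and 14.7, so each of these groups spans most of the values of the others. The difference between Tbk1het Tak1het and Tak1het was 1.56 on the log2 scale (SE 0.52, 95% interval 0.45 to 2.66, adjusted p = 0.135), which did not pass by edgeR's quasi-likelihood test. That of Tak1het from WT was -1.28 (adjusted p = 0.431) and the interaction of Tbk1 and Tak1 was 1.61 (adjusted p = 0.274). With DESeq2 the first of these passed (adjusted p = 0.036), as it did in a fit on the 2 groups alone (adjusted p = 0.0354).

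Il1a, the alarmin form of interleukin 1, had 7.53, 8.25 and 1.28 CPM in WT and 0.771, 11.4 and 6.91 CPM in the libraries labelled Tbk1het Tak1het Ripk1het, so replicates of 1 genotype spanned 6.46-fold and 14.8-fold. In Tbk1het it was at 7.43, 3.88 and 2.65 CPM, and in Tak1het at 4.65, 10.6 and 4.32. Tbk1het Tak1het had 4.77, 3.94 and 2.04 CPM and the libraries labelled Tbk1het Ripk1hom 2.74, 2.15 and 1.88. Neighbouring genotypes overlapped throughout, and Il1a passed no test. Reads of Gm14023, which overlaps 222 exonic bases of Il1a on the other strand, cannot be told apart from it in this unstranded assay, and that neighbour was counted at 0 to 21 per library. Likewise Il1bos shares 25 bases with Il1b (0 to 12 counts), and Gm45205 shares 485 with Pycard (0 to 6 counts).

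Il18, which needs caspase-1 to mature like Il1b but is made without prior stimulation, was at 18.9, 14.7 and 29.6 CPM in WT. It was at 14.6, 12.7 and 11.6 CPM in Tbk1het Tak1het and at 10.3, 13.3 and 9.8 in the libraries labelled Tbk1het Tak1het Ripk1het. All libraries of these 2 groups lay under all WT libraries. The log2 differences from WT were -0.70 (SE 0.29, adjusted p = 0.183) and -0.92 (SE 0.30, adjusted p = 0.386), and neither passed. Without WT replicate 3, the library with the most Il18, they were -0.37 (adjusted p = 0.541) and -0.60 (adjusted p = 0.828). Tbk1het had 17.6, 15.3 and 12.7 CPM, the libraries labelled Tbk1het Ripk1hom 15.6, 18.5 and 12.6, and Tak1het 7.8, 16.4 and 17.4, each overlapping WT.

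Among the inflammasome components, the sensor Nlrp3 and the adaptor Pycard were the steadiest. Nlrp3 spanned 12.5 to 23.9 CPM over all 18 libraries. It was at 14.1, 12.5 and 17.4 CPM in Tak1het and at 22, 17.7 and 17.6 in Tbk1het Tak1het, where the groups did not overlap but the difference did not pass (adjusted p = 0.394). Pycard was at 66.5, 63.5 and 67.9 CPM in WT and at 40.9, 62.4 and 51.7 in Tbk1het, every Tbk1het library lying under every WT library. The libraries labelled Tbk1het Ripk1hom had 70.8, 70.6 and 67.8 CPM, all above Tbk1het. The log2 differences were -0.35 against WT (SE 0.16, adjusted p = 0.456) and 0.43 for the libraries labelled Tbk1het Ripk1hom against Tbk1het (SE 0.16, adjusted p = 0.195). Without Tbk1het replicate 1, the library with the least Pycard, they were -0.21 and 0.27. In Tbk1het Tak1het Pycard was at 54.8, 73.3 and 67.9 CPM.

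The caspase genes ranged most widely inside Tbk1het. Casp4 was at 15.4, 38.2 and 3.71 CPM in Tbk1het, a 10.3-fold range that holds both the highest and the lowest of the 18 libraries. Casp1 was at 104, 203 and 68.6 CPM there, and replicates 2 and 3 again were the highest and lowest of all. Tbk1het replicate 3, low in both caspases, was the library with the highest Il1rn. Over the 18 libraries the correlation of Il1rn with Casp4 was r = -0.727 (rho = -0.558). Tbk1het replicate 3 is the extreme of both genes, and the correlation was not computed without it, so it is a description. Tbk1het replicate 1, also high in Il1rn, had 15.4 CPM of Casp4. In WT, Casp4 was at 19.4, 13.3 and 31.6 CPM and Casp1 at 104, 98.9 and 161. Tbk1het Tak1het had 24, 22.3 and 27.4 CPM of Casp4, above every Tak1het library (13.1, 18.1 and 19.4) and above every library labelled Tbk1het Tak1het Ripk1het (21.8, 12.5 and 17.5), with adjusted p-values of 0.685 and 0.727. Casp1 means lay between 98.5 and 125 CPM over the 6 genotypes and no difference passed.

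Gsdmd, the pore former, was at 87.8, 87.6 and 104 CPM in Tbk1het Tak1het. Each of these lay above the Tak1het libraries (62.5, 65.6 and 58.8 CPM) and above the Tbk1het libraries (60.7, 85.1 and 70.4 CPM). The log2 difference from Tak1het was 0.58 (SE 0.21, 95% interval 0.13 to 1.03, adjusted p = 0.177), and that from Tbk1het had an adjusted p of 0.272. WT had 69.1, 57.9 and 90.1 CPM, so 1 WT library reached the level of Tbk1het Tak1het. The libraries labelled Tbk1het Ripk1hom had 113, 56.3 and 81.9 CPM and those labelled Tbk1het Tak1het Ripk1het 91.8, 68 and 69.1, and both groups overlap WT.

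Il1b and Gsdmd followed each other from library to library (r = 0.816 and rho = 0.878 for log2 CPM over the 18 libraries). The libraries with the most Il1b, at 24.5 to 29.1 CPM, were replicate 1 labelled Tbk1het Tak1het Ripk1het, replicates 1 and 3 labelled Tbk1het Ripk1hom, WT replicate 3 and Tbk1het replicate 2, and in all 5 Gsdmd lay between 81.9 and 113 CPM. The libraries share depth and genotype, so these correlations are a description. In the 8 libraries of low mitochondrial share the median of Il1b was 23.3 CPM and of Gsdmd 88.9, against 10.6 and 66.8 in the 10 others. Il1a went the other way, with a median of 2.39 CPM in the 8 and 7.17 in the 10. The part of the mitochondrial share in these levels was not tested beyond its use as a covariate. Tak1het replicate 1 stands outside the pattern, with a low share, 3.6 CPM of Il1b and 62.5 CPM of Gsdmd. Tbk1het replicate 2 departs from it the other way, with a share of 1.82%, 24.7 CPM of Il1b and 85.1 CPM of Gsdmd.

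**Figure D3:**
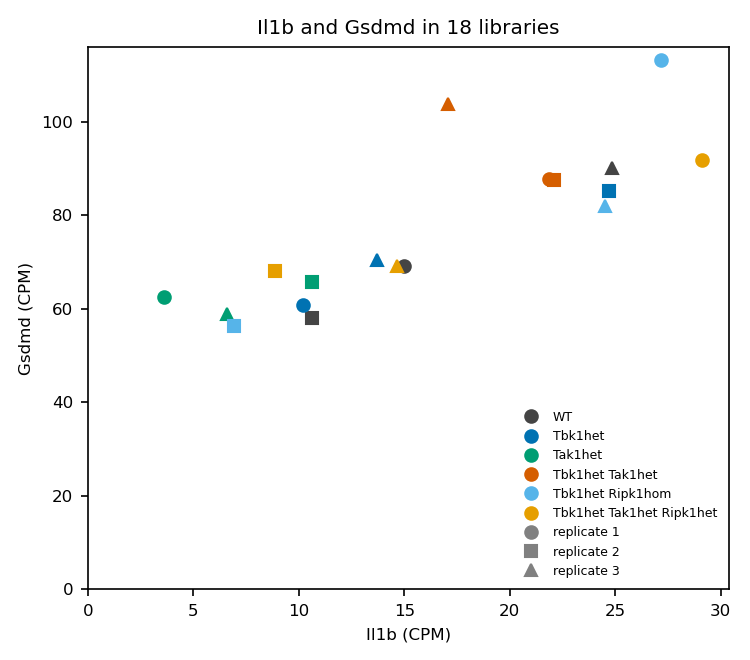
CPM of Gsdmd against CPM of Il1b. Each point is 1 of 18 libraries, coloured by genotype with the replicate number as symbol. The 5 libraries with the most Il1b, from 24.5 CPM, have 81.9 CPM of Gsdmd or more.

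By edgeR's quasi-likelihood test with all 18 libraries, no member other than Il1rn was called. None of the 9 passed that test in Tbk1het against WT (background 0.0521% of tested genes called), Tak1het against WT (0.0149%), Tbk1het Tak1het against WT (6.07%), Tbk1het Tak1het against Tak1het (2.79%), the libraries labelled Tbk1het Ripk1hom against Tbk1het (0.521%), those labelled Tbk1het Tak1het Ripk1het against Tbk1het Tak1het (2.45%), or the interaction (1.75%). By edgeR's test 0 of all tested genes were called in the libraries labelled Tbk1het Ripk1hom against WT (688 at an unadjusted p under 0.05) and 0 in those labelled Tbk1het Tak1het Ripk1het against WT (1074). Limma-voom called 0 members in all the comparisons listed so far. DESeq2 called Il1b in Tbk1het Tak1het against Tak1het (adjusted p = 0.036) and Il1rn in the libraries labelled Tbk1het Ripk1hom against Tbk1het (adjusted p = 0.0221), and 0 members in the others. Of all genes, DESeq2 called 733 in the first and 490 in the second, where edgeR called 375 and 70. At an unadjusted p under 0.05, members numbered 2 of 9 in Tbk1het against WT (10.2% of tested genes), 1 in Tak1het against WT (9.47%), 1 in Tbk1het Tak1het against WT (20.2%), 2 against Tbk1het (28.6%) and 2 against Tak1het (15.9%). They numbered 2 in the libraries labelled Tbk1het Ripk1hom against Tbk1het (15.3%), 0 against WT (5.12%), 0 and 1 in those labelled Tbk1het Tak1het Ripk1het against Tbk1het Tak1het (15.5%) and WT (7.99%), and 2 in the interaction (16.7%). Read against these shares, no count exceeded its background by more than 1 or 2 genes. The members' median log2 fold change was -0.05 in Tbk1het against WT, -0.27 in Tak1het against WT and -0.02 in Tbk1het Tak1het against WT, against medians of 0.0045, 0.0033 and 0.0038 over all tested genes. These comparisons share the WT libraries, so their values are not independent.

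The libraries of Tbk1het Tak1het stood apart from those of Tak1het for 4 members (Il1b, Casp4, Nlrp3 and Gsdmd, all higher, where 24.6% of tested genes stood apart) and from those of Tbk1het for 2 (Il1rn lower and Gsdmd higher, 33.6%). They stood apart from WT for Il18 alone (29.6%). Tbk1het stood apart from WT for Pycard (12.6%), the libraries labelled Tbk1het Ripk1hom from Tbk1het for Pycard (16.6%), and those labelled Tbk1het Tak1het Ripk1het from Tbk1het Tak1het for Casp4 (24.2%) and from WT for Il18 (14.2%). No member stood apart in Tak1het against WT (15.1%) or in the libraries labelled Tbk1het Ripk1hom against WT (10.8%).

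**Figure D4:**
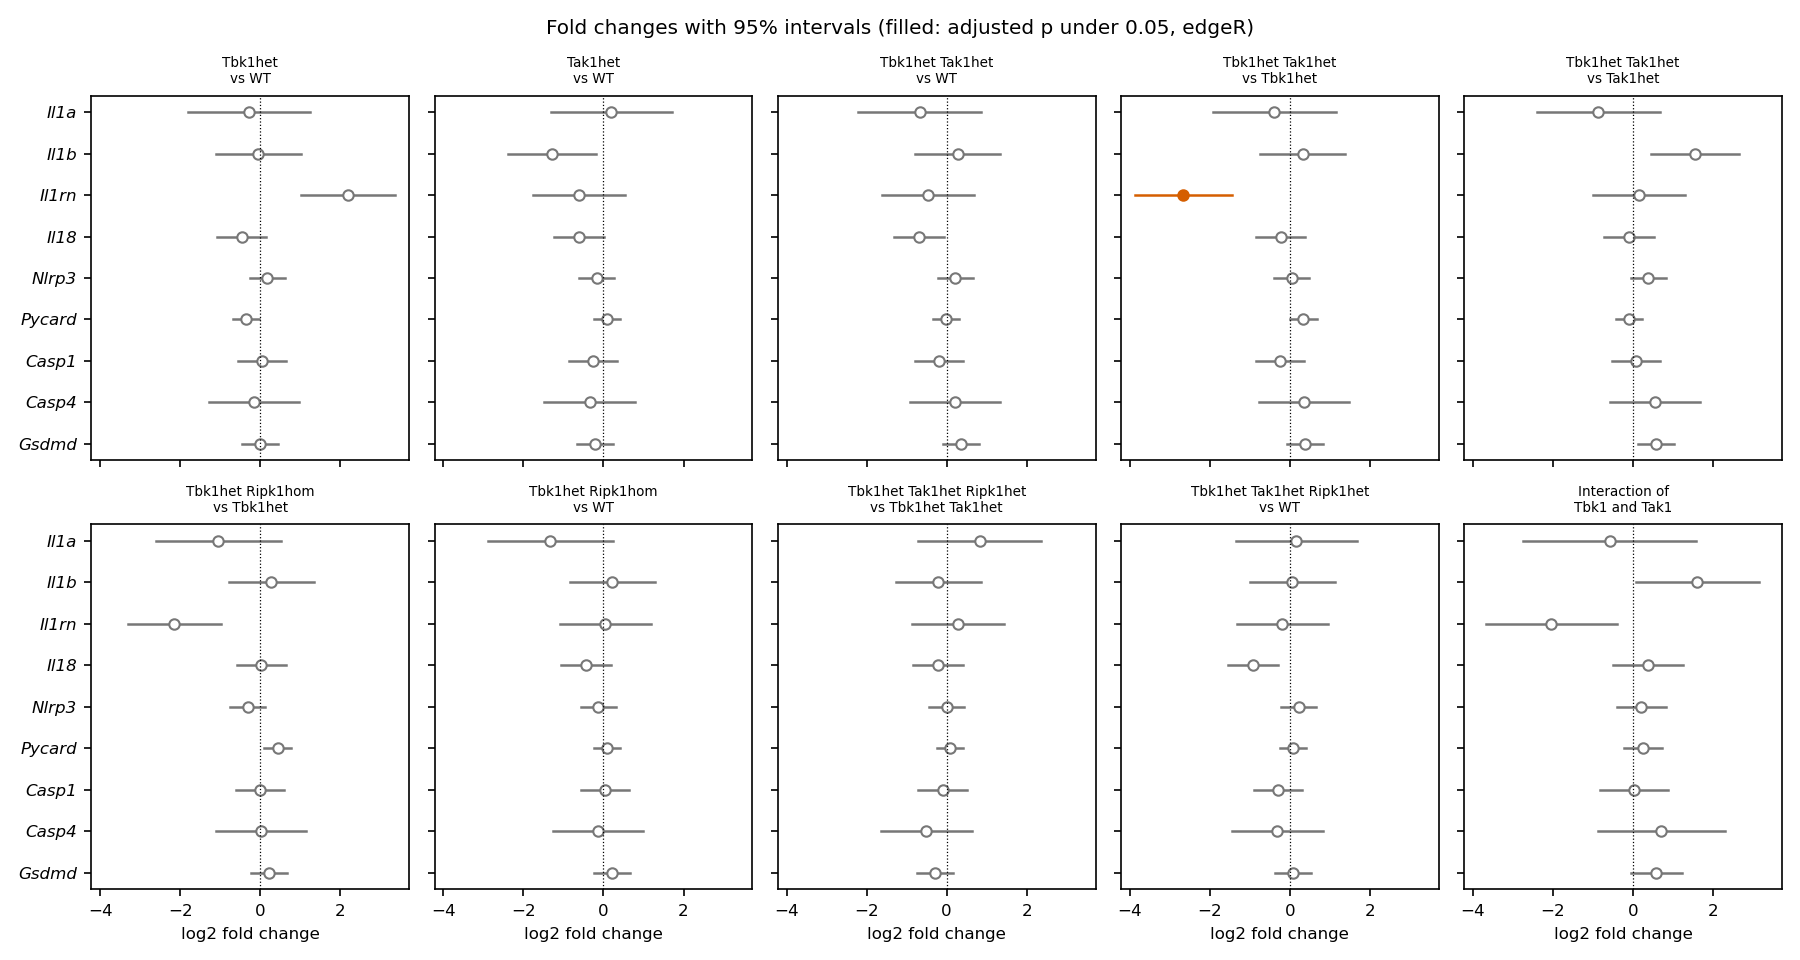
Log2 fold changes of the 9 genes in each comparison, with 95% intervals from the edgeR fit. Filled points mark calls at an adjusted p under 0.05, of which there is 1, Il1rn in Tbk1het Tak1het against Tbk1het.

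**Figure D5:**
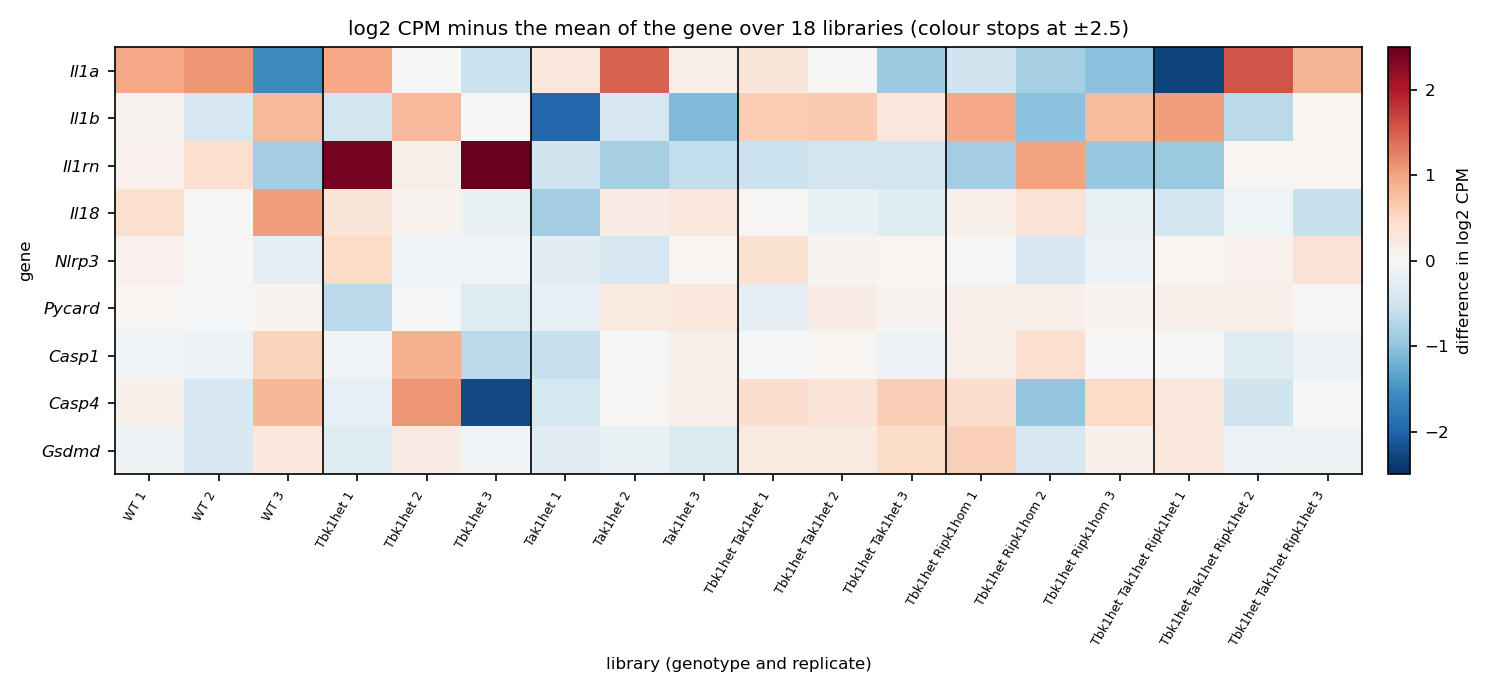
Difference of each library's log2 CPM from the gene's mean over the 18 libraries, with genes in rows and libraries in columns. Il1rn is highest in Tbk1het replicates 1 and 3, where Pycard lies under its mean, and Casp4 is lowest in replicate 3.

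The wider interleukin 1 and inflammasome pathway was read from lists of receptors, sensors and regulators. Of 60 listed genes, 58 were in the file and 41 were tested, and 4 were called in the overall test (Gbp3, Brcc3, Cd14 and Hmgb1), where 7.18% of all tested genes were called. The lists hold 1 tested gene of ligands and binding proteins, 13 of receptors and signalling, 7 sensors and 20 regulators of the inflammasome and pyroptosis. In the list of ligands and binding proteins no gene was called, and its tested gene Il18bp, a decoy for interleukin 18, had an adjusted p of 0.575 in the overall test. In Tbk1het Tak1het against Tbk1het, 2 of the 13, 1 of the 7 and 6 of the 20 were called, where 14.7% of all tested genes were. Called lower were Irak3, a brake on interleukin 1 receptor signalling (20.5 ± 2.57 against 30.8 ± 6.13 CPM, SD, n = 3, adjusted p = 0.0341), Naip2, a sensor of bacterial proteins (adjusted p = 0.0263), Hmgb1, a nuclear protein that acts as an alarmin once released (44.2 ± 2.87 against 79.8 ± 11.5 CPM, adjusted p = 0.000897), Tlr4, the lipopolysaccharide receptor (adjusted p = 0.0437), and Cd14 (adjusted p = 0.0188). Called higher were Gbp7, a guanylate-binding protein (12.3 ± 4.91 against 2.78 ± 1.61 CPM, adjusted p = 0.0105), and Nek7, which NLRP3 needs to assemble (118 ± 18.2 against 74.7 ± 11.1 CPM, adjusted p = 0.0219). Il18rap, a chain of the interleukin 18 receptor, and Trem1, an activating receptor, were called lower on few counts. Il18rap was at 0 in all 3 Tbk1het Tak1het libraries and at 0, 3.2 and 2.39 CPM in Tbk1het, and Trem1 had 1 count in all 3 Tbk1het Tak1het libraries together. With the mitochondrial share as a covariate, Irak3, Naip2, Hmgb1, Tlr4, Cd14, Gbp7 and Nek7 no longer passed (adjusted p 0.0801 for Hmgb1 to 0.658 for Tlr4). Of all tested genes, 140 were called in that fit, against 1974 in the main fit.

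Few pathway genes passed elsewhere. P2rx7, the ATP-gated channel that triggers NLRP3, rose in Tbk1het Tak1het against WT (103 ± 2.27 against 74.3 ± 2.65 CPM, SD, n = 3, log2 fold change 0.46, adjusted p = 0.0391). That call ended without each of the 6 libraries compared and with the mitochondrial covariate (adjusted p = 0.235). Cd14 fell in the libraries labelled Tbk1het Ripk1hom against Tbk1het (log2 fold change -1.38, SE 0.28, adjusted p = 0.0411), a call that ended without each library compared except Tbk1het replicate 2, and with that covariate (adjusted p = 0.258). Gbp3, a guanylate-binding protein, fell in the libraries labelled Tbk1het Tak1het Ripk1het against Tbk1het Tak1het (1.94 ± 1.18 against 9.64 ± 3.11 CPM, log2 fold change -2.30, adjusted p = 0.0204). That call ended without Tbk1het Tak1het replicate 2 (adjusted p = 0.0916) or 3 (0.0517), and without replicate 2 (0.101) or 3 (0.107) labelled Tbk1het Tak1het Ripk1het.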

How the data were processed

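The authors deposited raw counts of reads per gene for 18 libraries of mouse primary microglia, made from total RNA with oligo(dT) priming (Smart-seq2). Per the submitters' processing notes, reads were aligned with STAR and counted with featureCounts on mm10, while the labels' protocol text names RSEM. The deposited counts are whole numbers. Versions, annotation and strand setting are not given in the sources used here, and this chemistry does not mark strand. Total counts per library limit the precision of genes with few counts. The 95% intervals of fold changes come from the edgeR fit and include the spread between libraries.

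Symbols came from GENCODE M21, which named 50462 of 50686 identifiers. Genes were kept by filterByExpr (13447 genes), scaled by TMM and tested with the quasi-likelihood test of edgeR 4.0.16 in R 4.3.3, in 1 fit of all 18 libraries with a term for each genotype. Benjamini-Hochberg adjustment ran over all tested genes, and genes with an adjusted p under 0.05 are called. The script was tested on simulated data. CPM are TMM-scaled, and CPM per kilobase divides by exonic length. The 9 genes, the lists and the tests were chosen with earlier results of these data known. The text names the 9 members, the targeted genes, the called genes of 4 pathway lists (up to 4 in each direction, or the smallest p), cell type markers, and the 3 genes whose log2 CPM correlates best with the member called overall. Which markers to show beside that member, and the limit of 1% on the mitochondrial share, were chosen after the values were seen.

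Alternatives were DESeq2 1.42.0, limma-voom (limma 3.58.1), other size factors, other filters, the replicate number as a block, covariates for mitochondrial share and Y-linked genes, the 2 groups alone, and each library left out. Leaving out the 5 libraries with Tbk1 near the WT level was chosen after seeing the data.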

Additional observations from a re-analysis of the deposited data

How the results depend on the processing

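The call of Il1rn in Tbk1het Tak1het against Tbk1het held with DESeq2, limma-voom, other size factors, other filters and without each library in turn (log2 fold change -3.14 to -2.16, adjusted p 0.000286 to 0.0267). It ended with the mitochondrial share as a covariate, which called 0 members and 140 of all genes, against 1974 in the main fit. In the overall test, 0 members were called with limma-voom and with that covariate, 2 without a low-count filter and 3 with Y-linked genes as a covariate, and 0 to 1 when a library was left out. Without a low-count filter, 1 member was called in Tbk1het against WT, 1 in Tak1het against WT and 2 in Tbk1het Tak1het against Tak1het. That fit also called 1 in the libraries labelled Tbk1het Ripk1hom against Tbk1het and 2 in the interaction. Calls among all genes rose there too, and more genes were tested. In the same order they numbered 293, 251, 868, 754 and 927, against 7, 2, 375, 70 and 235 in the main fit. DESeq2 called Il1b in Tbk1het Tak1het against Tak1het and Il1rn in the libraries labelled Tbk1het Ripk1hom against Tbk1het (adjusted p = 0.0221). Of all genes it called 733 and 490 there. The Y-linked covariate called 2 members in Tbk1het Tak1het against Tak1het (Il1b and Gsdmd) and 2 in the interaction (Il1b and Il1rn). A fit on the 2 groups alone called 2 in the former, and 529 of all genes. Of all genes, the Y-linked covariate called 890 in the former and 755 in the interaction. Leaving out a library gave 0 to 1 members in Tbk1het against WT, in the libraries labelled Tbk1het Ripk1hom against Tbk1het (Il1rn, without Tbk1het replicate 2 or replicate 2 labelled Tbk1het Ripk1hom) and in the interaction (Il1rn, without Tbk1het replicate 2). Of all genes, 340, 631 and 719 were called in these comparisons without Tbk1het replicate 2. Without replicate 2 labelled Tbk1het Ripk1hom, 110 were called in that group against Tbk1het. The cause was not tested.

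In Tbk1het Tak1het against WT, where no member passed, the mitochondrial covariate turned the log2 fold changes of Il1a (0.76), Il1b (-0.39), Il1rn (0.43), Casp4 (-0.33), Pycard (0.043) and Gsdmd (-0.014). Leaving out single libraries gave ranges of -0.34 to 0.062 for Casp1, -0.070 to 0.59 for Casp4 and -0.10 to 0.097 for Pycard. The number of members called was the same as in the main fit in 283 of the alternatives and differed in 20. The main counts were 0 or 1, and many alternatives left out a library outside the comparison, so this tally does not measure stability.

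Replicate numbers did not pair the libraries: of 45 same-numbered pairs of libraries, 5 had correlated deviations over 0.1 (range -0.194 to 0.141), and 8 of 18 libraries matched best with their own number. With the replicate block 1 member was still called in the overall test and 1 in Tbk1het Tak1het against Tbk1het, and 0 elsewhere. Tlr4 (adjusted p = 0.0544) and Cd14 in the libraries labelled Tbk1het Ripk1hom (adjusted p = 0.0562) no longer passed. Gbp7 and Hmgb1 held in Tbk1het Tak1het against Tbk1het without each library in turn but not with the mitochondrial covariate (adjusted p = 0.112 and 0.0801), and Irak3, Naip2, Nek7, Cd14 and Tlr4 each lost the call without at least 1 of the libraries compared. Without the 5 libraries whose Tbk1 went against the label (added after seeing the data), no count of members changed in 6 of 8 comparisons. These 6 keep 3 libraries per group and hold none of the 5, so they cannot test the labels. P2rx7 (adjusted p = 0.0698) and Tlr4 (0.0774) lost their calls. The other 2 leave 1 library labelled Tbk1het Ripk1hom, assumed to vary like the rest, and say nothing about stability. Depth limits Il1a most, with as few as 13 counts in a library.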
